A study of Mus musculus with 12 samples.

Results

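Hearts of mice labelled Csrp3 knockout were compared with hearts of wild-type mice at postnatal day 1 (P1) by RNA sequencing of total RNA. The comparison used 3 libraries per genotype, which are 6 of the 12 libraries of the study, and they were chosen by their titles. The other 6 libraries are of the same genotypes at postnatal day 21 (P21) and serve here as separate samples in which the genes named at P1 were looked up. Both groups are hearts by the tissue label, and neither strain, sex and litter nor the knockout allele is described in the labels. Nor do they state that the 3 libraries of a group came from separate animals, so the p-values measure the spread between these libraries, which may be technical. The title of the series links Csrp3 to mitotic entry of cardiomyocytes through the ubiquitin ligase Rnf5 and p38 MAPK.

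Csrp3 encodes muscle LIM protein, a small protein with LIM domains that is found at the Z disc of striated muscle cells and also in their nuclei. Mice that lack it develop a dilated cardiomyopathy with disorganised myofibrils in the weeks after birth. Cardiomyocytes of the newborn mouse still divide, and they leave the cell cycle during the first postnatal week as the heart switches from glycolysis to fatty acid oxidation.

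The deposited values are FPKM, which count fragments per kilobase of gene after scaling by library size, and a gene was tested when it reached 1 FPKM in 3 or more of the 6 libraries. This left 12303 genes. Differences are given as knockout minus wild type on the log2(FPKM + 0.5) scale and were tested with limma, with Benjamini-Hochberg adjustment over all 12303 genes and a threshold of 0.05. The wild-type libraries held 15.1 to 15.9 M (megareads) in genes, with 22129 to 22353 genes above 0. Those labelled knockout held less, 13.2 to 14.2 M, with 21012 to 22015 genes above 0. Read numbers given below are not scaled for this, while FPKM are. Libraries did not sort by genotype: knockout library 2 correlated at 0.980 and 0.979 with wild-type libraries 1 and 2 and at 0.961 and 0.967 with knockout libraries 1 and 3, and wild-type library 3 correlated best with knockout library 1, at 0.971. The heart label held, with Myl2 and Myl3, the ventricular myosin light chains, at 1504 to 2798 FPKM. Markers of neighbouring organs were low, with a summed level of 1.44 to 3.91 FPKM for 8 lung epithelial genes and 3.39 to 12.3 FPKM for 8 liver genes. Xist, the RNA of the inactive X chromosome, was at 33.0, 0.132 and 0.0187 FPKM in wild type and at 32.9, 27.5 and 0.262 FPKM in the libraries labelled knockout. So 1 wild-type library and 2 labelled knockout carried it. Knockout library 3, which had little Xist, also had little of the Y-linked Ddx3y, at 0.867 FPKM against 12.2 and 12.3 FPKM in wild-type libraries 2 and 3, so it matched neither pattern.

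Csrp3 RNA was present in all 6 libraries. It was at 183, 179 and 238 FPKM in wild type and at 168, 94.3 and 147 FPKM in the libraries labelled knockout, which corresponds to 8241 to 11381 reads against 4067 to 7243 reads per library. The groups did not overlap, but the highest library labelled knockout and the lowest of wild type were close. The log2 difference of -0.58 (SE 0.24) had an unadjusted p of 0.0426 and an adjusted p of 0.999, and it was -0.33 without knockout library 2. At P21 the difference was -0.10 and the genotypes overlapped. A value for the whole gene does not tell an intact transcript from one that lacks a part, so the genotype is written below as labelled. The table gives Csrp3 on the minus strand of chromosome 7, from 48480146 to 48497781, in positions whose build is not given in the sources here.

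A single gene passed the threshold at P1, which is 0.00813% of those tested, and it was lower in the libraries labelled knockout. This gene, Htatip2, encodes an oxidoreductase-like protein also known as TIP30. It lies on the plus strand of chromosome 7 from 49408863 to 49423723, 0.911 Mb from Csrp3. It was at 3.28, 4.18 and 4.03 FPKM in wild type and 0.0307, 0.184 and 0.0968 FPKM in the libraries labelled knockout. In reads this is 123, 146 and 146 against 1, 6 and 3. At both ages Htatip2 passed the filter only through the wild-type libraries, so the filter fixed the direction of its difference, though not the size. With no filter at P1 it was still called, with a limma adjusted p of 0.0247. All 3 wild-type libraries were far above all 3 labelled knockout, and the read rate was 36.8-fold higher in wild type, with a 95% interval of 19.8 to 77.3 that covers counting error only. Htatip2 fell by 2.84 on the log2 scale (SE 0.20, limma adjusted p = 0.00888). The P21 libraries, which took no part in this fit, held 108, 181 and 90 reads of Htatip2 in wild type and 5, 2 and 3 in those labelled knockout. There the log2 difference was -3.56, with an unadjusted p of 0.000124 and an adjusted p of 0.300. The difference between the 2 ages did not pass the threshold (limma interaction, adjusted p = 0.715). The call at P1 was lost when any wild-type library or knockout library 3 was left out, with adjusted p of 0.099, 0.227 and 0.101 without wild-type libraries 1, 2 and 3 and 0.0579 without knockout library 3. With any 1 of the 6 libraries left out, the log2 difference lay between -2.94 and -2.75.

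The bases before the first start of transcription that RefSeq lists for Csrp3 and Htatip2 are shown because these are the labelled target and the called gene. They come from build GRCm38.p6, in which both genes lie at other positions than in the deposited table, at chr7:48848052-48848301 on the minus strand for Csrp3 and at chr7:49758856-49759105 on the plus strand for Htatip2. Capitals mark each match to the GC box GGGCGG, to TATATA and to the E box CANNTG on either strand, and no matches overlap.
Csrp3: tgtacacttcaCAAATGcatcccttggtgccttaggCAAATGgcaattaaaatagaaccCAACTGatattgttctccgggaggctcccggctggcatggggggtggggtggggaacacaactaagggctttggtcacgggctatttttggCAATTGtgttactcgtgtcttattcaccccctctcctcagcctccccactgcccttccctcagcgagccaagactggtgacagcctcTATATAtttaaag
Htatip2: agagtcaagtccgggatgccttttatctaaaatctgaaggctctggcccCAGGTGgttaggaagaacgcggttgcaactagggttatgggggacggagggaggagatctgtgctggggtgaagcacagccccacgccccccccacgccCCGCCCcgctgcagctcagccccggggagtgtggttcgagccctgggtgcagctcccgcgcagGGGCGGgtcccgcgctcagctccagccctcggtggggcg
The Csrp3 sequence holds 1 TATATA and 4 E boxes and no GC box, and 51.2% of its bases are G or C. The Htatip2 sequence holds 2 GC boxes, 1 E box and no TATATA, at 67.2% G or C. Of 27025 mouse genes with a sequence of the same length, 5.56% held TATATA, 32.9% the GC box and 66.0% the E box. The matches describe these letters only.

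Of the 41 chromosome 7 genes at an unadjusted p under 0.05 at P1 that were also tested at P21, 17 (41.5%) had the same direction there, against 41.3% of all genes tested at both ages. At P21, 5 of them reached an unadjusted p under 0.05 in the same direction and 3, Snrpa1, Gm44710 and Ucp3, in the opposite one. The genes described next are mostly ones with the same direction at both ages, and none passed the adjusted threshold. Nudt19, Pop4 and Mrps12 were chosen by a rule on the same P1 values, given below, that requires no overlap at P1. The others, apart from Csrp3, were picked from the chromosome after their values were seen. Hps5, a subunit of a complex that builds lysosome-related organelles, had 2.49, 2.40 and 2.72 FPKM in wild type and 1.01, 0.953 and 1.09 FPKM in the libraries labelled knockout. Its log2 difference was -1.001 at P1 (unadjusted p = 0.000177, adjusted p = 0.313) and -0.92 at P21. The groups were well apart at P1 and, at P21, did not overlap by a narrow gap, with 2.28 FPKM in the lowest wild-type library and 1.88 FPKM in the highest labelled knockout. The long non-coding gene Gm32849, 0.237 Mb from Csrp3, had 4.30, 2.35 and 4.88 FPKM in wild type against 0.794, 0.241 and 0.218 FPKM, a difference of -2.25 (adjusted p = 0.313), and was too low to be tested at P21. Gm32849 passed the filter at P1 only through the wild-type libraries, so the direction of its difference was fixed by the filter. Nudt19, which encodes a hydrolase of coenzyme A, was at 7.98, 10.7 and 9.72 FPKM in wild type and at 23.3, 15.6 and 23.4 FPKM in the libraries labelled knockout. All 3 of the latter were above wild type at P1, with a log2 difference of 1.08 (adjusted p = 0.727), and again at P21, with 1.37. Pop4, a protein subunit of ribonuclease P, was at 3.30, 3.99 and 3.18 FPKM against 10.5, 6.74 and 5.62 FPKM, and its log2 difference was 0.99 at P1 and 1.27 at P21. For Mrps12, a protein of the small mitochondrial ribosomal subunit, the values were 14.2, 14.8 and 13.1 FPKM against 22.5, 22.0 and 21.05 FPKM, with differences of 0.62 at P1 and 0.75 at P21. Zfp568, a zinc finger repressor, differed by 0.46 and 1.17, and Tubgcp5, a subunit of the gamma-tubulin ring complex, by 0.52 and 0.61. For these 5 genes on the higher side and for Hps5, the groups did not overlap at either age. At P1 this was required by the rule or known when the genes were picked. Of the 11040 genes tested at both ages, 52 did not overlap in the same direction at both and 40 in opposite directions.

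**Figure D1:**
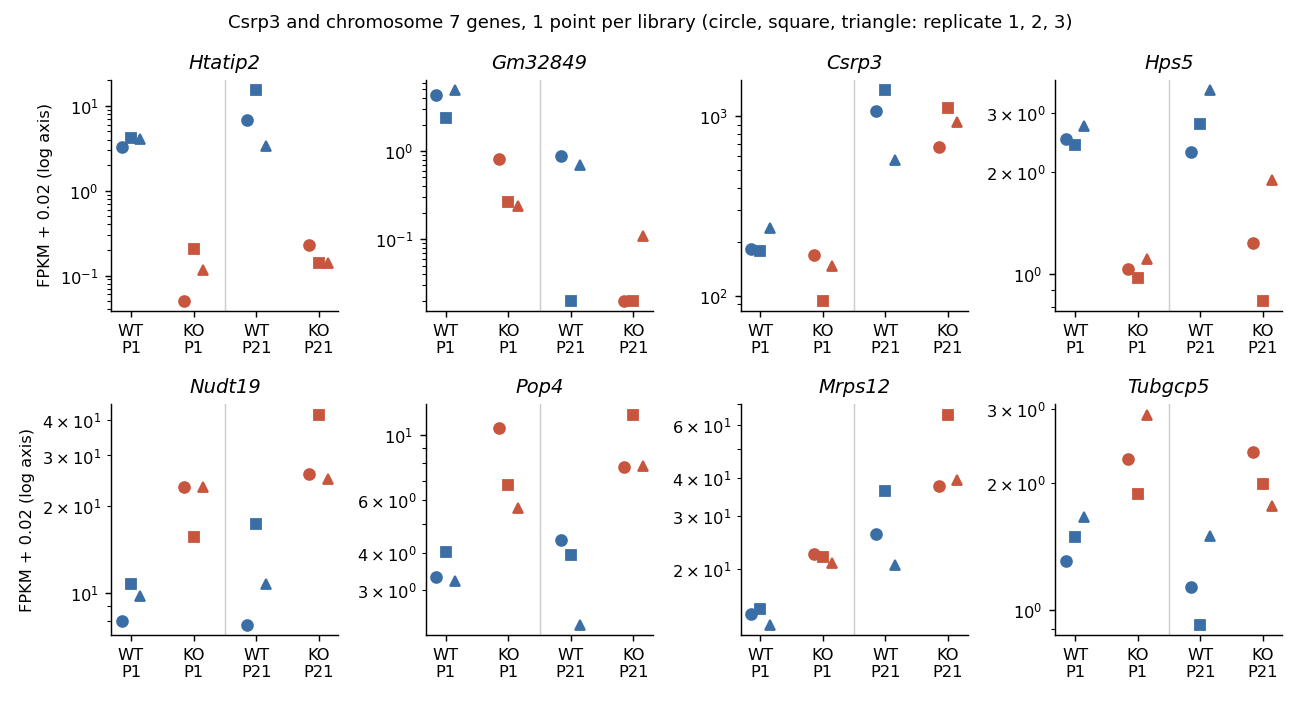
FPKM of Csrp3 and 7 other chromosome 7 genes in each library, with 0.02 added and a log axis in every panel, wild type in blue and the libraries labelled knockout in red, at P1 and P21. Htatip2, Gm32849 and Hps5 lie lower in red at P1, Nudt19, Pop4, Mrps12 and Tubgcp5 lie higher in red at both ages, and Csrp3 overlaps at P21.

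Along the chromosome, genes at an unadjusted p under 0.05 were 47 of 897 on chromosome 7 (5.24%), against 2.11% to 3.90% on the other autosomes. Genes without overlap between the groups were 11.1% on chromosome 7, against 5.81% to 9.70% on the other autosomes and 7.93% of all genes tested. By distance from Csrp3, measured between the nearest ends of the genes, the number at an unadjusted p under 0.05 was 3 of 11 within 2 Mb, 6 of 79 from 2 to 5 Mb, 3 of 16 from 5 to 10 Mb and 14 of 123 from 10 to 20 Mb. Beyond that it was 7 of 224 from 20 to 40 Mb, or 3.12%, and 13 of 443 farther away, or 2.93%. Csrp3 itself is left out of these counts, the bounds were chosen after the data were seen, and no test of the pattern was made. The genes counted within 2 Mb include Htatip2 and Gm32849, which passed the filter only through wild type. An exception at distance was Gm15501, a processed pseudogene 44.3 Mb away, with 11.3, 9.68 and 11.02 FPKM in wild type and 26.6, 19.6 and 24.0 FPKM in the libraries labelled knockout (log2 difference 1.09, adjusted p = 0.313). At P21 it had no such difference, at -0.69 with overlapping groups.

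**Figure D2:**
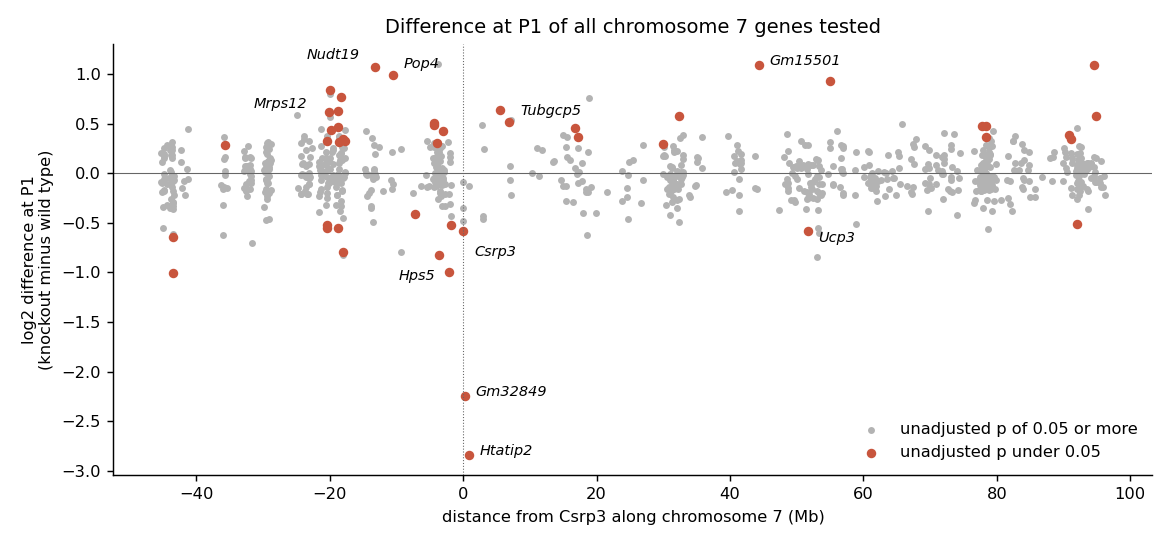
Log2 difference at P1 (knockout minus wild type) of the 897 chromosome 7 genes tested, against the distance from Csrp3 in Mb, with genes at an unadjusted p under 0.05 in red. Htatip2 at -2.84 and Gm32849 at -2.25 lie farthest from 0, both within 1 Mb of Csrp3. Both passed the filter only through wild type.

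Over the whole table the difference at P1 was small. An unadjusted p under 0.05 was reached by 378 genes (3.07%), of which 266 (2.16%) were higher and 112 (0.91%) lower in the libraries labelled knockout. The groups did not overlap for 976 genes (7.93%), and the median difference of all genes was -0.01. Of the 322 genes at an unadjusted p under 0.05 that were also tested at P21, 29.8% had the same direction there, against 41.3% of all genes tested at both ages. At P21, 16 of them reached an unadjusted p under 0.05 in the same direction, 5 of which lie on chromosome 7, and 12 did so in the opposite direction, where 6.21% of the 12036 genes tested at P21 reached it.

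The genes with the largest differences were taken among those with an unadjusted p under 0.05, no overlap, a mean of at least 5 FPKM in the higher group, a length of at least 500 bases and an official name. This rule left 112 genes higher and 12 genes lower in the libraries labelled knockout, and the first 12 in each direction were taken, of which all the higher and 11 of the lower genes are named. None passed the adjusted threshold, and all were chosen by the same P1 values, so their differences are a description. Beside Nudt19, Pop4 and Mrps12, the higher genes included 3 that are best known from blood-derived cells. Cma1, the mast cell protease chymase, was at 2.77, 2.34 and 2.46 FPKM in wild type and at 3.93, 6.53 and 5.69 FPKM in the libraries labelled knockout (log2 difference 0.94). S100a9, a calcium-binding protein of neutrophils, was at 9.83, 8.10 and 13.9 against 20.3, 14.7 and 21.7 FPKM (0.82). Tyrobp, a signalling adaptor of myeloid and natural killer cells, was at 3.48, 3.91 and 6.37 against 8.19, 7.61 and 7.93 FPKM (0.77). It also lies on chromosome 7, at -18.4 Mb from Csrp3, and is among the genes counted above from 10 to 20 Mb. In each of the 3 genes the lowest library labelled knockout stood above the highest wild-type library, by a small margin for S100a9. At P21, S100a9 and Tyrobp overlapped between the genotypes, at -0.89 and -0.35, and Cma1 had 2.61, 1.26 and 0.825 FPKM in wild type and 0, 0.773 and 0 FPKM in the libraries labelled knockout.

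The other higher genes were C1qtnf4 (log2 difference 0.67), a secreted protein related to complement C1q, Mrm2 (0.65), a methyltransferase of mitochondrial ribosomal RNA, Ptgds (0.61), a prostaglandin D2 synthase, Fmc1 (0.61), an assembly factor of ATP synthase, and Rpl21 (0.75) and Ppia (0.58). Rpl21, a ribosomal protein, and Ppia, cyclophilin A, have many processed pseudogenes, so their values are uncertain where reads can be shared. C1qtnf4 was at 5.78, 8.08 and 7.84 FPKM in wild type and at 11.5, 11.5 and 12.1 FPKM in the libraries labelled knockout, with no library of either group near the other group. Ptgds was highest in knockout library 1, at 112 FPKM, while the other 2 were at 64.5 and 67.0 and wild type at 47.8, 53.7 and 52.7 FPKM, and its difference was 0.36 without that library. None of these 6 genes was higher at P21, where their differences ran from -1.08 to -0.09.

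Lower genes with a role in muscle or in its energy use were Klhl41 and Ucp3. Klhl41, a Kelch protein that stabilises sarcomeric proteins, was at 35.5, 36.9 and 41.2 FPKM in wild type and at 27.3, 30.7 and 22.7 FPKM in the libraries labelled knockout (log2 difference -0.49). Ucp3, an uncoupling protein of muscle mitochondria, was at 15.1, 14.6 and 23.7 against 12.04, 13.8 and 9.02 FPKM (-0.58). The groups were separate in both genes, with the narrower gap in Ucp3. At P21 the differences were 0.77 for Klhl41 and 1.58 for Ucp3. Egr1, an immediate early transcription factor, was at 12.5, 12.8 and 15.3 FPKM in wild type and at 9.27, 6.88 and 9.97 FPKM in the libraries labelled knockout (-0.62, and 1.59 at P21). Lgals3bp, a secreted binding partner of galectin-3, was at 5.58, 5.98 and 5.26 against 2.86, 4.50 and 3.01 FPKM (-0.65). The atrial kinase gene Sbk2 (-0.64) was lowest in knockout library 3, at 4.09 FPKM against 8.34 and 6.91 in the other 2 and 8.43 to 11.6 FPKM in wild type. Bcl2l11 (-0.42), which encodes the apoptosis activator Bim, Tnpo2 (-0.37), a nuclear import receptor, Tmem255a (-0.33), Pitpnc1 (-0.31), a phosphatidylinositol transfer protein, and the transcription factor gene Stat5b (-0.28) completed the lower genes together with Csrp3.

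**Figure D3:**
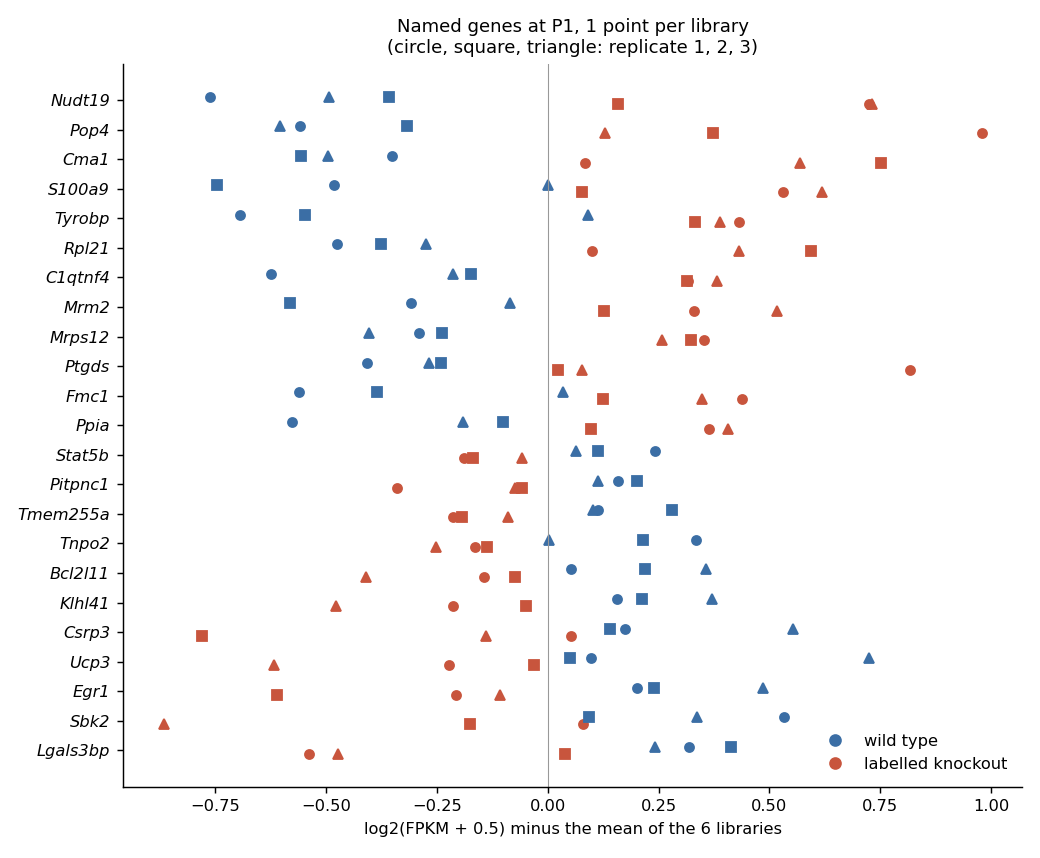
Level of 23 named genes in each library at P1, as log2(FPKM + 0.5) minus the mean of the 6 libraries, wild type in blue and the libraries labelled knockout in red. The rule chose genes whose groups do not overlap, so the separation is given by the choice, and the gap between the groups is narrow for most genes.

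Rnf5, the ubiquitin ligase of the series title, was at 13.9, 7.42 and 12.6 FPKM in wild type and at 10.002, 13.8 and 11.6 FPKM in the libraries labelled knockout. The groups overlapped fully, with a log2 difference of 0.09 (SE 0.24) whose sign turned to -0.17 when wild-type library 2 was left out, to -0.02 when knockout library 2 was, and to -0.04 with the trend on gene length removed. At P21, Rnf5 was at 3.13, 6.46 and 5.66 FPKM in wild type and at 11.02, 10.8 and 10.4 FPKM in the libraries labelled knockout, all of them above wild type (1.06, unadjusted p = 0.0055, limma adjusted p = 0.759). Mapk14, which encodes p38 alpha, was at 18.01, 16.8 and 15.7 against 15.8, 17.96 and 17.3 FPKM, a difference of 0.01 (SE 0.12) with no direction that held. At P21 its difference was -0.48 without overlap (unadjusted p = 0.105). Of 24 tested genes of the p38 pathway, 7 had a positive and 17 a negative difference, the median was -0.03, and 0 reached an unadjusted p under 0.05. The smallest p belonged to Mapkapk3, a kinase activated by p38, at 3.64, 3.83 and 4.40 FPKM in wild type and 3.55, 2.86 and 2.89 FPKM in the libraries labelled knockout (-0.31, unadjusted p = 0.0653). Its groups did not overlap, although wild-type library 1 and knockout library 1 were nearly level. In ER-associated degradation, the disposal route in which Rnf5 acts, 14 of 26 genes were positive with a median of 0.00, and 0 reached an unadjusted p under 0.05. Selenos and Ube2j2, a membrane selenoprotein and a ubiquitin-conjugating enzyme of that route, were at 0.26 and 0.22 without overlap between groups. In the unfolded protein response, 16 of 22 genes were positive with a median of 0.13, where 48.4% of all genes tested were positive. At an unadjusted p under 0.05, 1 of the 22 was higher and 1 lower. Over all genes tested these shares were 2.16% and 0.91%. Manf, a growth factor secreted under ER stress, was at 13.2, 13.7 and 12.2 FPKM in wild type and at 18.2, 17.96 and 18.6 FPKM in the libraries labelled knockout. The groups were tight and apart (log2 difference 0.47, unadjusted p = 0.00292, adjusted p = 0.999), and at P21 the difference was -0.17. Atf6, a sensor of ER stress, stood the other way at -0.40 (unadjusted p = 0.0309) with overlapping groups.

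Among 18 tested genes of the Csrp family and other LIM proteins, 10 had a positive difference and the median was 0.02. Csrp1 was at 58.5, 55.3 and 56.6 FPKM in wild type and 59.1, 68.7 and 66.4 FPKM in the libraries labelled knockout, and Csrp2 at 35.7, 30.7 and 46.2 against 48.3, 44.1 and 41.7 FPKM. Their log2 differences of 0.18 and 0.27 had unadjusted p of 0.172 and 0.155. Of 23 genes of the Z disc and of titin's partners, 16 were negative with a median of -0.10. The one gene there without overlap was Rcan1, a calcineurin inhibitor, at 0.21. Of 20 contractile genes of the sarcomere, 9 were positive with a median of -0.03. Smpx, a small muscle protein, was at 93.6, 88.0 and 106 FPKM in wild type and 148, 103 and 139 FPKM in the libraries labelled knockout (0.43, unadjusted p = 0.0422), with 1 library inside the wild-type range. Myl3 and Tnnc1, which encodes cardiac troponin C, were at 0.31 and 0.27 without overlap. For comparison, the groups did not overlap in the higher direction for 4.58% of all genes and in the lower direction for 3.35%.

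Of 21 markers of hypertrophy and wall stress, 13 had a positive difference, with a median of 0.09. Nppb, which encodes B-type natriuretic peptide, was at 85.1, 75.7 and 55.2 FPKM in wild type and at 230, 73.4 and 168 FPKM in the libraries labelled knockout. Knockout libraries 1 and 3 were above all wild-type libraries and library 2 was within their range (log2 difference 1.00, SE 0.40, unadjusted p = 0.0389, adjusted p = 0.999). At P21 the difference was 1.80, also short of the adjusted threshold. Nppa, atrial natriuretic peptide, named beside it after its values were seen, was at 863, 501 and 297 FPKM against 1458, 640 and 396 FPKM, with overlap and a difference of 0.51 that was -0.0037 without knockout library 1. Of 15 atrial markers, Nppa among them, 11 had a negative difference, with a median of -0.21. That median was -0.41 without knockout library 1 and -0.03 without knockout library 3. The summed level of the 15 markers ran from 1541 to 2672 FPKM in wild type and from 1455 to 3233 FPKM in the libraries labelled knockout. The part of the spread of these sums in the natriuretic peptide values was not tested.

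Genes of cell division varied more between libraries of a genotype than between genotypes. The median of 43 mitosis and cytokinesis genes, relative to the mean of the 6 libraries, was 0.37, 0.19 and -0.49 for wild type and -1.20, 0.52 and 0.68 for those labelled knockout. Knockout library 1 was the lowest and knockout libraries 2 and 3 the highest of the 6. Cdc20, an activator of the anaphase-promoting complex, was at 24.6, 19.5 and 10.5 FPKM in wild type and at 7.64, 25.6 and 30.8 FPKM in the libraries labelled knockout. Ccnb2, a mitotic cyclin, and Ube2c, a ubiquitin-conjugating enzyme of mitotic exit, had the same order of libraries within the knockout group, and the 3 differences were 0.09, -0.11 and 0.16, each with a sign that turned when some single libraries were left out. Of the 43 genes, 18 were positive, the median difference was -0.03, and 0 reached an unadjusted p under 0.05. The median was 0.59 without knockout library 1 and -0.36 without knockout library 3. Of 41 DNA replication genes, 27 were positive with a median of 0.11 that turned negative when wild-type library 3 (-0.06), knockout library 2 (-0.06) or knockout library 3 (-0.07) was left out, and knockout library 1 was again the lowest, at -0.73 against 0.42 and 0.48 in the other 2. Among 15 inhibitors of the cell cycle 6 were positive, and Cdkn1a, which encodes p21, was at 7.98, 8.45 and 8.64 FPKM in wild type against 13.8, 10.2 and 8.62 FPKM (0.34, unadjusted p = 0.0907). Erbb4, the neuregulin receptor of cardiomyocytes, was at 2.82, 2.82 and 2.42 against 2.17, 1.79 and 2.02 FPKM, without overlap (-0.36, unadjusted p = 0.0401).

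Energy metabolism and protein synthesis showed small differences shared by many genes. Of 48 nuclear genes of oxidative phosphorylation 45 were positive, where 48.4% of all genes tested were, with a median of 0.26. Atp5k, a subunit of ATP synthase, was at 97.8, 84.8 and 112 FPKM in wild type and 127, 136 and 149 FPKM in the libraries labelled knockout (0.49). Uqcr10 of complex III (0.45) and Ndufb8 of complex I (0.39) were the other 2 at an unadjusted p under 0.05, and 14 of the 48 genes had no overlap, all higher. Over all genes tested, 2.16% were higher at an unadjusted p under 0.05 and 4.58% were higher without overlap. Among the shortest protein-coding genes, described below, 113 of 2176 were higher at an unadjusted p under 0.05. All 39 tested cytoplasmic ribosomal protein genes were positive, with a median of 0.33, and Rpl38, at 101, 102 and 107 against 143, 122 and 137 FPKM, was the only one at an unadjusted p under 0.05. In both lists wild-type libraries 1 and 2 were lowest, and wild-type library 3 lay among the libraries labelled knockout for the ribosomal list and just below them for oxidative phosphorylation. With 1 library left out, the median difference ran from 0.18 (without knockout library 1) to 0.49 (without wild-type library 3) for the ribosomal list and from 0.20 to 0.36 for oxidative phosphorylation. The ribosomal medians, relative to the mean of the 6 libraries, were -0.37, -0.30 and 0.20 in wild type and 0.43, -0.10 and 0.15 in those labelled knockout. Fatty acid oxidation (13 of 28 positive, median -0.02) and glycolysis (14 of 21, median 0.06) were near the level of all genes. Of 26 genes of calcium handling and ion channels 19 were negative, with a median of -0.12. S100a1, a calcium-binding partner of the sarcoplasmic reticulum pump and the ryanodine receptor, went in the other direction, at 137, 142 and 185 FPKM in wild type and 208, 193 and 233 FPKM in the libraries labelled knockout (0.46, unadjusted p = 0.0272). With the trend on gene length removed, its difference was 0.26. The median length of the list was 5595 bases, and length is described below.

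**Figure D4:**
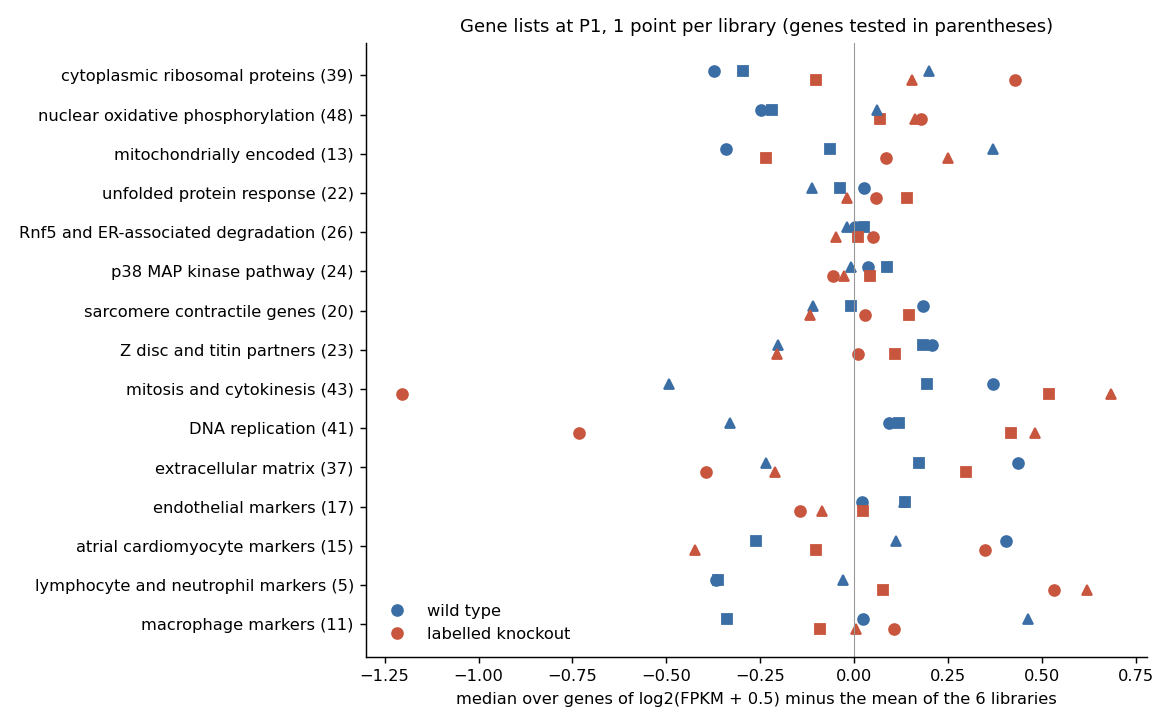
Median of each gene list in each library at P1, as log2(FPKM + 0.5) minus the mean of the 6 libraries, wild type in blue and the libraries labelled knockout in red. Mitosis genes spread from -1.20 to 0.68 within the knockout group alone, and in most lists the colours mix.

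Gene length moved with these lists. In protein-coding genes divided into 5 classes of equal size by length, the median difference went from 0.13 in the shortest class over 0.03, -0.01 and -0.05 to -0.10 in the longest. Genes at an unadjusted p under 0.05 on the higher side numbered 113 of 2176 in the shortest class and 2 of 2176 in the longest. The median length was 1830 bases for the ribosomal list and 1870 bases for the oxidative phosphorylation list, against 6619 bases for the extracellular matrix list. Library by library, the shortest class had medians of -0.15, -0.13 and 0.10 for wild type and 0.12, 0.04 and 0.07 for those labelled knockout, so wild-type libraries 1 and 2 were opposite to the other 4. Pseudogenes had a like pattern, with 71.2% of 611 positive. With the trend on length removed from each library, an alternative chosen after the data were seen, the oxidative phosphorylation median was 0.13, the ribosomal median 0.19 and the matrix median -0.20. Among the genes with the largest higher differences, it gave the lowest value of any alternative for Cma1 (0.77), S100a9 (0.60), Tyrobp (0.57) and C1qtnf4 (0.53). The same held for Mrm2 (0.51), Mrps12 (0.45) and Fmc1 (0.41). The others of these genes were lowest under other settings.

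**Figure D5:**
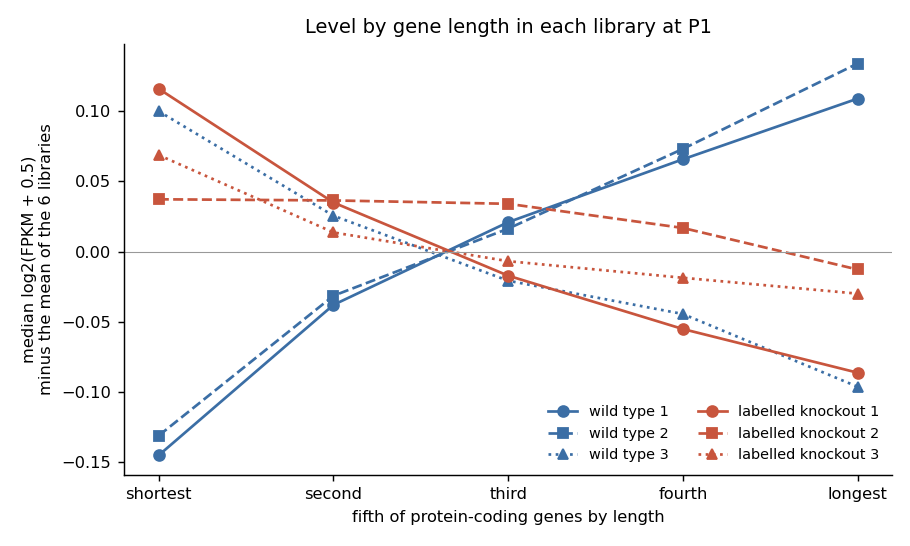
Median level of protein-coding genes in 5 length classes in each library at P1, as log2(FPKM + 0.5) minus the mean of the 6 libraries, wild type in blue and the libraries labelled knockout in red. Wild-type libraries 1 and 2 climb from the shortest to the longest genes, and wild-type library 3 and the libraries labelled knockout go the other way.

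Genes of the extracellular matrix were on balance at lower values in the libraries labelled knockout, with 33 of 37 negative and a median of -0.26. The median was -0.05 without knockout library 1 and -0.09 without wild-type library 1, and -0.49 and -0.48 without wild-type library 3 and knockout library 2. Fbln5, an elastic fibre protein, was the only one at an unadjusted p under 0.05, at 8.51, 6.03 and 5.92 FPKM in wild type and 4.14, 6.08 and 3.90 FPKM in the libraries labelled knockout (-0.50). Col6a3, a chain of collagen VI, had the list's largest difference, -0.74, at 10.1, 7.14 and 4.53 against 2.78, 6.43 and 3.35 FPKM. In both genes knockout library 2 lay within the wild-type range. Fibroblast markers had a median of -0.05 over 14 genes. In bulk tissue, fewer cells of a type and less RNA per cell cannot be told apart.

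Of 17 endothelial markers 3 were positive (median -0.10), and of 12 smooth muscle and pericyte markers 5 were, where 48.4% of all genes tested were positive. The smooth muscle and pericyte median of -0.13 ran from -0.32 without wild-type library 3 to -0.03 without wild-type library 2 and was 0.0078 with a filter of 5 FPKM, so it had no direction that held. Aplnr, the apelin receptor of endothelial cells, was at 15.8, 21.4 and 29.2 FPKM in wild type and at 12.1, 12.1 and 18.6 FPKM in the libraries labelled knockout (-0.60, unadjusted p = 0.0452). Pecam1, an endothelial adhesion protein, was at 37.4, 37.4 and 35.2 against 28.8, 33.7 and 31.7 FPKM, with all 3 below wild type (-0.22, unadjusted p = 0.0959). Of the 12 smooth muscle and pericyte genes, 2 were lower and 0 higher at an unadjusted p under 0.05. Over all genes tested, 0.91% were lower and 2.16% higher. Differences in this list ran from -0.61 to 0.30. The pericyte gene Vtn, vitronectin, was at 1.30, 1.51 and 2.20 against 0.703, 0.976 and 1.06 FPKM (-0.61), near the filter of 1 FPKM. Abcc9, a subunit of a potassium channel in pericytes, was at 40.9, 47.4 and 30.8 against 26.9, 33.1 and 26.4 FPKM (-0.44), with overlap.

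Of 20 lymphocyte and neutrophil markers 5 passed the filter on low values, all of them neutrophil genes and all positive. The median length of these 5 genes was 694 bases, and the shortest protein-coding genes had a positive median difference as a class, as given above. With no filter the median difference of the list was 0.12, against 0.82 for these 5 genes. Under the filter, the neutrophil gene Ltf was at 0.939, 0.621 and 0.599 FPKM in wild type against 0.702, 0.574 and 0.928 FPKM. Lcn2, also of neutrophils, was at 0.474, 0.398 and 0.511 against 0.710, 0.331 and 0.673 FPKM, and both overlapped. Retnlg, a neutrophil resistin-like protein, was at 0.638, 0.684 and 0.754 FPKM in wild type and 3.56, 2.09 and 1.21 FPKM in the libraries labelled knockout (1.14). Ngp, a granule protein, was at 2.17, 2.51 and 1.14 against 3.76, 2.94 and 4.44 FPKM (0.82). S100a9 is given above, Camp, an antimicrobial peptide gene, was at 1.07, 1.07 and 1.47 against 1.97, 1.06 and 3.10 FPKM, with overlap (0.50, and 0.21 without knockout library 3 and 0.81 without knockout library 2), and S100a8, the partner of S100a9, was at 4.51, 5.51 and 6.68 against 11.6, 5.09 and 4.52 FPKM, with overlap (0.22, and -0.18 without knockout library 1). The summed level of the 20 markers was 19.6 to 26.2 FPKM in wild type and 28.0 to 43.7 FPKM in the libraries labelled knockout. Its largest part was S100a9, which was chosen by its P1 values. Cd3g and Gzma, markers of T cells and cytotoxic cells, were at 0 in all 6 libraries, and Mpo and Elane, of immature neutrophils, were at most 0.177 FPKM. Retnlg passed the filter only through the libraries labelled knockout, so it had to differ and its values are a description, while the other 4 were above 1 FPKM in all 3 wild-type libraries. Macrophage markers had no common direction, with 3 of 11 positive and a summed level of 45.2 to 80.0 FPKM in wild type and 52.3 to 65.6 FPKM in the libraries labelled knockout. Krt18, a keratin of the epicardium, was at 3.23, 2.06 and 3.46 against 4.88, 4.14 and 3.73 FPKM (0.49, unadjusted p = 0.0391), in a list of epicardial and mesothelial markers with 8 of 10 positive. Over all genes tested 48.4% were positive. Krt18 was the only one of the 10 at an unadjusted p under 0.05, where 2.16% of all genes tested were higher. The median of this list was 0.19, and -0.01 without knockout library 1, so it had no direction that held. Among interferon-stimulated genes 5 of 15 were positive, with Xaf1, an apoptosis-related target of interferon, at 1.53, 1.46 and 1.33 FPKM in wild type and 0.966, 1.02 and 0.920 FPKM in the libraries labelled knockout (-0.40). Of the immediate early genes 8 of 20 were positive, and beside Egr1 the mRNA decay factor Zfp36 was at an unadjusted p under 0.05 (-0.52). Both were lower, as were 0.91% of all genes tested, and Egr1 was chosen above by its P1 values. The groups overlapped for Zfp36. It lies on chromosome 7, at -20.4 Mb from Csrp3, and is among the genes counted above from 20 to 40 Mb.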

How the data were processed

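The authors deposited 1 table of FPKM values for 56748 genes. The submitters' processing notes name TopHat2 2.0.13, featureCounts of Subread, FastQC and edgeR, and give the builds GRCh38, mm10 and GRCm39 with no role. Only 2.85% of the gene IDs shared with a GRCm38 annotation start at the same base there, so no sequence was read by the table's positions. No source used here says if strand was used in counting, so reads of a gene and its antisense partner may be mixed. Per the labels' protocols the miRNeasy micro and Ovation Ultralow V2 kits were used.

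FPKM times gene length gave whole reads, within 0.05 read, for 100% of values, and the deposited P1 values carry a scaling factor of 1.14 to 1.17. Groups came from the titles. The deposited FPKM are not counts: limma 3.58.1 in R 4.3.3, with trend and robust estimation, was fitted to log2(FPKM + 0.5) of the 6 P1 libraries and apart from them to the 6 P21 libraries, and an interaction to all 12. This scale understates the change of low genes. Every adjusted p is limma's, by Benjamini-Hochberg. On data simulated for the P1 comparison over 12303 genes, 58 of 100 genes with a log2 change of 1 were called, 84 of 100 with a change of 2, and 10 unchanged genes. The simulation changed 200 genes and drew noise independently for each gene. The real libraries share variation across genes, so these shares need not hold for them.

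Named genes are Csrp3, Rnf5, Mapk14, the called gene, the 12 largest differences in each direction and, from 36 gene lists, up to 4 members with the smallest p (the 3 most abundant for mitosis, where libraries spread widely); not all are printed, and 1 of the 12 lower genes is not reported here. The comparison and the lists were chosen with earlier results of these data known. Alternatives changed the pseudocount, filter, scaling, model and libraries. Promoters are from RefSeq, and figures were drawn with matplotlib 3.10.9.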

Additional observations from a re-analysis of the deposited data

Results flagged for a closer look

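Cma1 had opposite, non-overlapping directions at the 2 ages, with a log2 difference of 0.936 at P1 and, at P21, 2.61, 1.26 and 0.825 FPKM in wild type against 0, 0.773 and 0 FPKM in the libraries labelled knockout. Ucp3 was also opposite, with a log2 difference of -0.582 at P1 and 1.58 at P21, where it was at 3.33, 4.04 and 6.95 FPKM in wild type and at 24.2, 8.83 and 14.7 FPKM in the libraries labelled knockout. The difference between the ages itself did not pass the threshold for either gene (limma interaction on 12 libraries, adjusted p = 0.687 for both).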

How the results depend on the processing

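Of 69 named genes, 62 kept their direction under every one of the 21 alternatives in which they were tested. Most of these genes were chosen by their P1 values in the same libraries, so this count was largely fixed by the choice. Where the groups do not overlap, leaving out 1 library cannot turn the sign. The 1 call, Htatip2, held under a pseudocount of 1, no filter, 3 rescalings, gene models left out, no trend, library weights and removal of the length trend, but not with a pseudocount of 0.1 (log2 difference -4.33, adjusted p = 0.0726), all 12 libraries in the model (-2.84, 0.141), Xist as a covariate (-2.79, 0.0555) or voom on recovered reads (-5.26, 0.0749), where 0 genes passed in limma. A filter of 5 FPKM also left 0, since Htatip2 was not tested, and library weights gave 2, with Snrpert. With 1 library left out there were 0 to 1 calls and Htatip2 stood at -2.94 to -2.75. The 378 genes at an unadjusted p under 0.05 became 736 with no filter, 209 with the filter of 5 FPKM, 1158 with library weights, 76 with all 12 libraries, 570 with Xist, 308 with voom, 377 with the pseudocount of 0.1, and 208 to 1131 with 1 library left out, the highest without wild-type library 3. The cause was not tested.

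With the replicate number as a block, 0 genes passed (474 at an unadjusted p under 0.05) and Htatip2 had a log2 difference of -2.84 with an adjusted p of 0.0838. Libraries with the same number had deviations that correlated at -0.173, 0.201 and 0.145, so the numbers were not taken to pair the samples.

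Signs turned in small differences. On the TPM scale the median of all genes tested moved from -0.01 to -0.103, and list medians are to be read against it. Rnf5 was -0.038 with the length trend removed and -0.17 to 0.26 with 1 library left out. Mapk14 was -0.083 on the TPM scale, -0.0057 with Xist, -0.0021 with voom and -0.034 to 0.065 with 1 left out. Cdc20 was -0.011 on the TPM scale, -0.035 with library weights, -0.015 with the length trend removed and -0.28 to 0.69 with 1 left out. Ccnb2 was 0.047 with Xist and -0.40 to 0.40 with 1 left out. With 1 left out, Ube2c ran from -0.23 to 0.84, Nppa from -0.0037 to 0.94, S100a8 from -0.18 to 0.45, and Csrp3 at P21 from -0.47 to 0.18. With 3 libraries per genotype and 1 to 6 Htatip2 reads in those labelled knockout, the depth limits how well its low level is known.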

Other observations

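Ldha-ps2, a processed pseudogene on chromosome 4 whose parent encodes lactate dehydrogenase A, was at 1.18, 0.603 and 2.17 FPKM in wild type and at 5.402, 7.26 and 6.86 FPKM in the libraries labelled knockout at P1 (log2 difference 2.03, limma adjusted p = 0.313). At P21 it was at 0, 0 and 0.354 FPKM against 4.59, 8.20 and 3.89 FPKM (adjusted p = 0.268). The groups did not overlap at either age. At P21 Ldha-ps2 passed the filter only through the libraries labelled knockout, so it had to differ there. It was singled out after its values were seen, and reads of a processed pseudogene can be shared with its parent gene. The interferon-stimulated gene Xaf1 and the vitronectin gene Vtn, both given above at P1, were also lower without overlap at P21, by a log2 difference of -0.78 and -0.69, with an adjusted p of 0.759 for both in limma.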
